A study of Drosophila melanogaster with 2 samples.

Results

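Weak candidate regions of the CG4854-eGFP fusion in 3' untranslated regions (3' UTRs) numbered 1495 among the 30000 candidates of the pooled peak list. The authors named that list as peaks and background, so a candidate need not be a binding site. A candidate was weak when it overlapped no peak of the authors' reproducible set, the peaks kept by their limit on the irreproducible discovery rate (IDR), which scores how well peak ranks repeat between replicates. Its summit had to lie in a 3' UTR, in no coding exon or 5' UTR, and more than 500 bp from every protein-coding transcription start site (TSS), and chromosome 4 was left out. The members were thus chosen by pooled signal, through the IDR set, and by annotation, so their low signal is a description of the choice. Without chromosome 4 there were 25460 weak candidates in all, and 1366 lay in coding exons and 11039 in introns.

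The data came from chromatin immunoprecipitation sequencing (ChIP-seq) of whole Drosophila melanogaster embryos aged 0 to 24 h, males and females pooled. All embryos were of the transgenic strain CG4854-GFP, which stably expresses CG4854 with GFP at its C terminus, and the fusion was precipitated with an antibody to GFP. The 2 biological replicates, numbered 2 and 3, form 1 group, so no conditions could be compared. Untagged and mock-precipitated embryos were not analysed here, the cell types that carried the signal are unknown in whole embryos, and the read depth is not given in the sources used here.

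CG4854 is a ZAD zinc finger protein, one of a large group of insect proteins thought to bind DNA through their zinc fingers. A 3' UTR is the stretch of an mRNA after the stop codon, where RNA-binding proteins and microRNAs act on stability, localisation and translation, and where the cleavage and polyadenylation signal lies. ChIP-seq reads DNA, so a summit in a 3' UTR marks the gene's 3' end in chromatin and carries no strand. In Drosophila, mRNAs of several genes carry much longer 3' UTRs in the nervous system than elsewhere, under control of ELAV, a neuronal RNA-binding protein.

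The DNA at the summits of the 8 members that rank 2 to 9 by signal shows the kind of sequence at the strongest of these candidates. The bases were read from the Release 6 genome (dm6) on the strand of the host mRNA, 5′ to 3′, with the summit base in capitals.
Inx2, plus strand, chrX:7001248-7001277: aaaactaatgatttcTtgggcttctttcac
CG10222, minus strand, chr3L:13411199-13411228: aatccagaccaccacTagatgtcgctgcaa
raskol, plus strand, chrX:17751891-17751920: atgtatatgcagtgaTcgtttcaacattca
Pdk1, plus strand, chr3L:145569-145598: gcagtacctaaaatcGaagaaagagtacag
Ama, plus strand, chr3R:6765052-6765081: gcatccgtcggcttgTgcaaacacacatta
nocte, minus strand, chrX:10462129-10462158: cggaaacggaacgaaGaggaagtgtagacg
elav, minus strand, chrX:515866-515895: tttgcatccagcccaTaaaaccagtcagac
CG3168, minus strand, chrX:6720107-6720136: atatatttgcttaacTaaactcaactgaag
A second set shows members that hold short elements known from 3' UTRs or repeats, again on the mRNA strand, with the element in capitals. These are the strongest such members for the 4 elements whose share in members lay most above that in all weak candidates.
CG3168, Pumilio-type site, minus strand, chrX:6720123-6720152: gtacatacataTGTACATAtatttgcttaa
scyl, CA repeat, plus strand, chr3L:11255111-11255140: gaaaatacaaaCACACACAcacacaaacac
E(spl)mgamma-HLH, Bearded box, plus strand, chr3R:26000683-26000712: ataaacacacaaAGCTTTAgatgaggacgc
elav, AU-rich core, minus strand, chrX:515894-515923: gtacacaaatcgaATTTAataataagcttt

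The strongest member lay in the 3' UTR of Myd88, the adaptor of Toll receptor signalling (arm 2R, 9302824 to 9303227). Its signal, the authors' peak score, was 93.4 in the pooled list, 24.6 in replicate 2 and 67.2 in replicate 3. The replicate 3 score was thus the higher, although scores of different lists are not on 1 scale. Inx2, an innexin of gap junctions, followed with a pooled signal of 92.7 and scores of 40.2 and 57.7 in replicates 2 and 3. CG10222 had 89.5, with 38.0 and 42.7 in the replicates. The member of raskol, a Ras GTPase-activating protein gene, had 88.5 in the pooled list and 48.7 and 42.1 in the replicates, and it lay 38011 bp from the nearest IDR summit. Pdk1, a kinase of insulin signalling, had a pooled signal of 86.3, but only replicate 3 held a candidate within 100 bp (59.2), since the nearest in replicate 2 lay 153 bp away. Ama, which encodes the secreted adhesion protein Amalgam, had 85.5 with replicate scores of 30.3 and 54.1, and nocte, needed for temperature entrainment of the clock, had 85.0 with 47.9 and 38.0. The elav summit, 1912 bp after the stop codon in an 8557 bp 3' UTR, also had 85.0, with 27.5 and 62.6. Among the 7 of these genes with a candidate in both replicates, replicate 2 had the higher score at raskol and nocte alone.

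The rest of the 25 strongest members had pooled signals from 74.0 to 84.6. In order they lay in CG3168, RpS26 (a small ribosomal subunit protein), CG17290, BTBD9, dao, CG1888, CG14440, fne (an ELAV family member), CG5890, Fnta (a farnesyltransferase subunit), chic (profilin), TAF1B (an RNA polymerase I factor), CG5151, CG3308, CG1888 again, Cam (calmodulin) and CG7778. CG1888 thus held 2 of the 25. Both replicates held a candidate within 100 bp of 21 of the 25, and replicate 3 had the higher score at 15 of those 21. When members with both were ordered by the lower of their replicate scores, raskol (42.1), Inx2 (40.2), nocte (38.0) and CG10222 (38.0) led. They were followed by lwr, the SUMO-conjugating enzyme (37.5), CG8569 (35.8), fne (35), dao (33.9), CG5151 (33.8) and CG14440 (33.0).

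Over all 1495 members, pooled signal lay between 20.05 and 93.4, the median being 27.6 and the quartiles 23.4 and 34.7. The median was 30.8 over all weak candidates, 26.2 in coding exons, 30.2 in introns and 37.9 at promoters. Each member was 404 bp wide, the median width of the pooled list. Just inside the limit set by the IDR set stood Myd88 (93.4), Inx2 (92.7) and CG10222 (89.5), and just outside it the IDR peaks at CG8929 (99.6), Madm (99.4) and CG4467 (98.4). The TSS limit had Atg8a and bsd at 503 bp and CG4186 at 506 bp inside, and CG6044 at 500 bp, CG10866 at 499 bp and ATPsynG at 491 bp outside. It left out 177 weak summits in 3' UTRs. The median distance of a member from a TSS was 2124 bp.

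Weak candidates were somewhat denser in 3' UTRs than in introns, whereas IDR peaks were sparser there. The 5.95 Mb of sequence that met the positional rule held 251 members per Mb. Weak candidates per Mb numbered 212 in introns, 123 between genes, 74.2 in coding exons, 277 in 5' UTRs and 420 at promoters. Over the whole sequence the weak density was 192 per Mb. IDR peaks numbered 19 in the same 3' UTR sequence, or 3.19 per Mb, against 18.5 in introns, 0.326 in coding exons and 110 at promoters. The 3' UTR share of the pooled list was larger at lower ranks. It was 0.614% (0.370 to 0.958) among the 3106 highest signals, which are the IDR peaks, and 1.77% (1.32 to 2.33) from there to rank 6000. It was 3.73% (3.26 to 4.25) from there to rank 12000, 6.51% to rank 18000, 7.36% to rank 24000 and 7.40% to rank 30000. The share of coding exons went from 0.194% to 8.12% over the same classes and that of promoters from 54.4% to 16.7%. Intervals in this text are exact Clopper-Pearson 95% intervals and cover counting error over candidates or genes only, and 232 members (15.5%) overlapped another member, so they are not independent of each other.

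**Figure D1:**
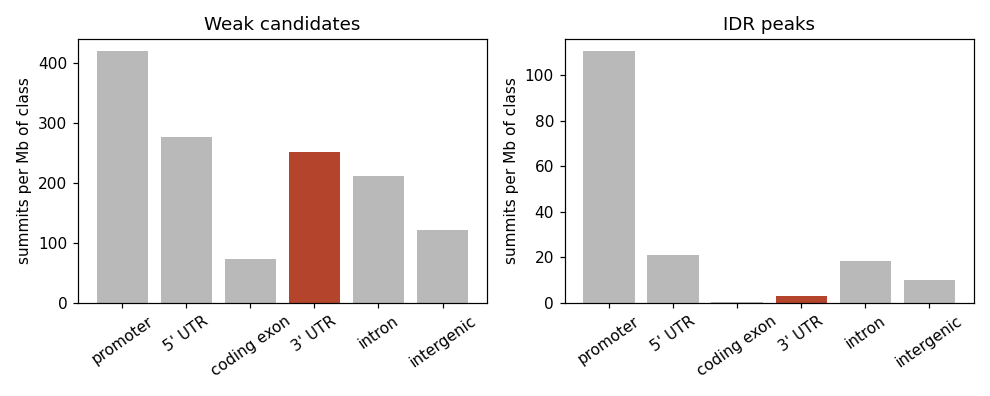
Summits per Mb of each annotation class (vertical axes, starting at 0, with different scales) for weak candidates on the left and IDR peaks on the right, with the 3' UTR class in red. Weak candidates reached 251 per Mb in 3' UTRs and 212 in introns, whereas IDR peaks reached 3.19 and 18.5 per Mb.

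The 19 IDR peaks that met the same positional rule show what a strong summit in a 3' UTR looked like here. Their pooled signal lay between 98.4 and 352.5 (median 137), above every member, as the choice of members fixes. The strongest lay in by (352.5), which encodes the adhesion protein tensin, with 187.3 and 163.8 in replicates 2 and 3. CG7872 had 317.4 and Lim1, a homeobox gene, 317.1, and the Lim1 summit lay 21 bp after the stop codon. APC7 of the anaphase-promoting complex (246.9), CG33307 (241.2), stas (207.2), Tctp (183.0) and CG5895 (176.2) came next. REG (a proteasome activator, 144.7), CG9166 (137.2), CG9837 (131.6), the nuclear receptor gene Hr4 (130.2) and the axon guidance gene NetB (126.6) followed. The weakest were CG8206 (116.6), scf (115.04), Bre1 (a histone H2B ubiquitin ligase, 106.4), CG8929 (99.6), Madm (99.4) and CG4467 (98.4). At every one of the 19, both replicates held a candidate within 100 bp.

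Most members had a candidate in 1 replicate but not in the other. A summit within 100 bp was found in replicate 2 for 815 members (54.5%) and in replicate 3 for 721 (48.2%), where the background over all weak candidates was 56.8% and 57.2%. Both replicates held one for 308 members, 20.6% (18.6 to 22.7), against 28.9% of all weak candidates, 27.9% of those in introns and 14% of those in coding exons. Neither replicate held one for 267 members (17.9%, 15.9 to 19.9) against 14.8% of all weak candidates. The pooled list was made from the same reads, so this share is not independent of pooled signal, and the values are also given at equal signal. At a signal of 20 to 25 it was 1.54% of members and 1.83% of all weak candidates, and at 25 to 30 it was 7.45% and 9.16%. At 30 to 40 it was 33.4% (28.7 to 38.5) and 28.7%, at 40 to 60 it was 58.5% and 57.7%, and from 60 upwards it was 88.7% (77.0 to 95.7) and 81.5%. In each of these 5 classes the members' interval for both replicates held the value of all weak candidates. For single replicates it missed that value in 3 places. Replicate 3 held 27.4% (23.7 to 31.5) of members at 20 to 25 against 32.5%. Replicate 2 held 66% (61.0 to 70.8) at 30 to 40 against 60.2%, and 98.1% (89.9 to 99.95) from 60 upwards against 89%.

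**Figure D2:**
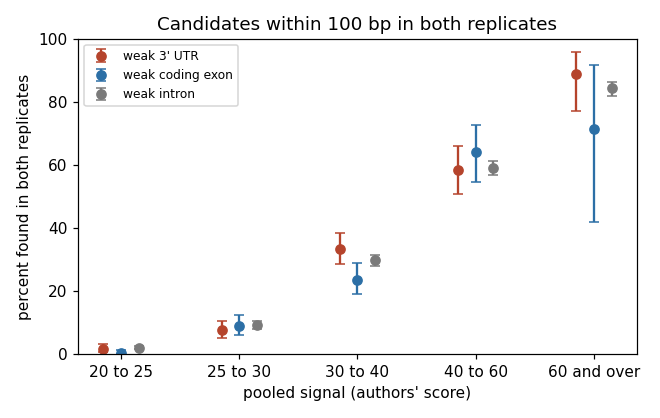
Percent of candidates with a summit within 100 bp in both replicates (vertical axis) by class of pooled signal (horizontal axis, the authors' score), for weak 3' UTR, coding exon and intron candidates, with exact 95% intervals. The 3' UTR share climbs from 1.54% at 20 to 25 to 88.7% at 60 and over, close to that of introns (1.93% and 84.3%).

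Among the 308 members found in both replicates, the score ran from 12.6 to 56.2 in replicate 2, with a median of 19.4, and from 12.4 to 67.2 in replicate 3, with a median of 19.3. Replicate 3 was higher at 162 and replicate 2 at 146. The log2 ratio of replicate 3 to replicate 2 had a median of 0.07 and an SD of 0.56 over members. Spearman's rho between the replicates was 0.38 over these members and 0.33 over the other 7039 weak candidates with both, points that share their libraries and the selection on pooled signal.

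**Figure D3:**
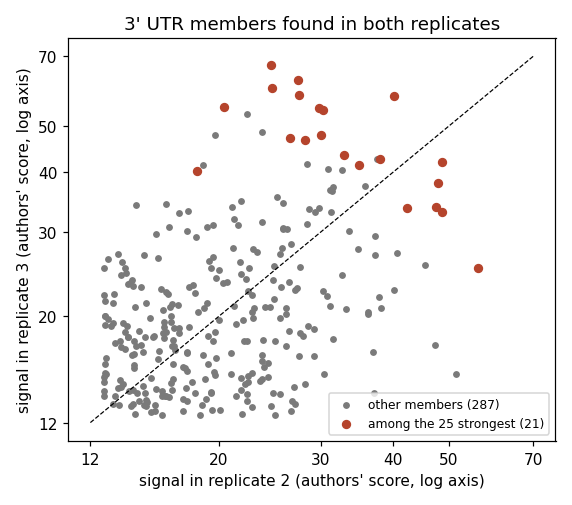
Signal in replicate 2 (horizontal) against replicate 3 (vertical), both the authors' score on log axes, for the 308 members with a candidate within 100 bp in both, and the line of equality dashed. The 21 that belong to the 25 strongest members are red, 15 of them above the line.

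Base composition differed little from that of 3' UTRs in general, and it moved with the replicate that held the candidate. The median GC content within 50 bp of the summit was 35.6% in members, 34.7% in 118993 windows tiled over the same 3' UTR sequence, 37.6% at weak intron candidates and 54.5% at weak coding exon candidates. Windows under 25% GC made up 6.09% (4.93 to 7.42) of members and 10.9% of the tiled windows, and windows of 30 to 35% GC made up 27.0% (24.8 to 29.4) and 23.1%. The median was 34.7% at the 507 members found in replicate 2 alone and 36.6% at the 413 found in replicate 3 alone. Under 25% GC, replicate 2 held a candidate at 46 of 91 members (50.5%, 39.9 to 61.2) and replicate 3 at 28 (30.8%, 21.5 to 41.3). From 45% GC upwards, replicate 2 held one at 102 of 192 (53.1%, 45.8 to 60.3) and replicate 3 at 110 (57.3%, 49.97 to 64.4). All weak candidates had the same order of the replicates, with 68.6% and 49.9% under 25% GC and 47.0% and 61.5% from 45% upwards. Over all weak candidates the replicate 2 share thus fell with GC, whereas in members it stayed between 50.5% and 56.4% over the GC classes. The part of base composition in which replicate held a member was not tested.

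Along the 3' UTR, members were scarce next to the stop codon and most frequent in the distal part, short of the end. With each 3' UTR cut into 3 equal parts, 25.3% (23.1 to 27.6) of members lay in the first, 35.7% in the middle and 39.0% (36.5 to 41.5) in the last, against 32.9%, 33.4% and 33.7% of the eligible bases. With 10 equal parts, the first held 5.42% (4.33 to 6.69) of members and 9.78% of bases, the ninth 13.6% (11.9 to 15.5) and 10.1%, and the last 9.50% (8.06 to 11.1) and 10.1%. Within 200 bp of the stop codon lay 18.2% (16.3 to 20.2) of members against 26.7% of bases, whereas within 200 bp of the end lay 24.9% (22.8 to 27.2) against 26%. The low share lay on the side that borders coding sequence, the class with the lowest weak density, and a link between these was not tested. Taken separately, the median distance of members was 638 bp from the stop codon and 477 bp from the end, and the median length of their 3' UTRs was 1383 bp. Sequence that is 3' UTR on both strands, where convergent genes overlap, held 40 members (2.68%, 1.92 to 3.63) against 2.77% of bases.

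**Figure D4:**
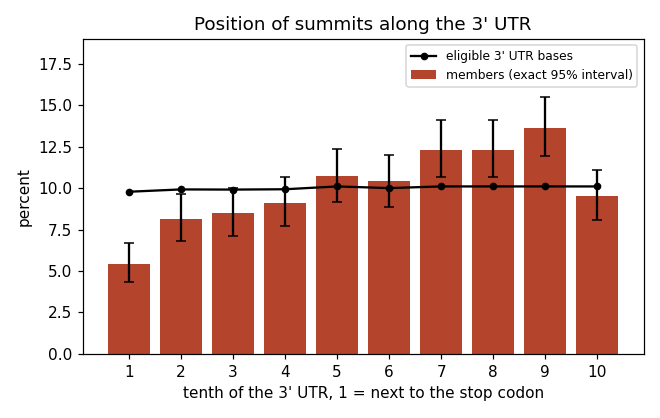
Percent of the 1495 members (red bars, exact 95% intervals) and of eligible 3' UTR bases (black points) in each of 10 equal parts of the 3' UTR, from the stop codon (1) to the end (10). Members run from 5.42% in the first part to 13.6% in the ninth, while the bases stay between 9.78% and 10.1%.

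By arm, member density was 268 per Mb of eligible 3' UTR on 2L, 269 on 2R, 275 on 3L, 246 on 3R and 213 on X. The members fell in 3' UTRs of 1185 genes, 10.4% of the 11349 protein-coding genes with eligible 3' UTR sequence. A single member was held by 922 genes, 2 by 196, 3 by 41 and 4 or more by 26, and 59 members lay in 3' UTRs of 2 genes. The count went with length, and the median eligible length was 991 bp in hosts and 196 bp in the other genes. The share with a member rose from 1.76% of genes with up to 250 bp to 18.5% at 500 to 1000 bp and 51.3% above 4000 bp. Per kb there was no such rise above 250 bp, with 0.155 members per kb up to 250 bp, 0.253 to 500 bp, 0.282 to 1000 bp, 0.285 to 2000 bp, 0.265 to 4000 bp and 0.210 beyond.

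The gene with most members was mei-P26, a TRIM-NHL protein of the female germline, with 7 in the longest 3' UTR of any host (18494 bp). All 7 were weak, from 20.9 to 29.4, and spread from 599 to 15775 bp after the stop codon, and none had a candidate in both replicates. By contrast, corto, which encodes a chromatin factor that interacts with Polycomb and Trithorax proteins, held 6 in 6594 bp, and both replicates held a candidate at all 6. The corto signals were 73.8, 64.1, 53.3, 36.1, 32.0 and 28.2, at 1173, 2272, 4207, 158, 5783 and 6436 bp after the stop codon. At the strongest corto summit the score was 47.3 in replicate 2 and 17.4 in replicate 3, and at the next it was 19.7 and 48.0, so the order of the replicates turned within 1 gene. Imp, an mRNA-binding protein of the IGF2BP family, held 6 (22.4 to 54.8), and mtd held 6 (23.2 to 58.0). Some neighbouring members overlap each other in Imp, mtd, ps, Galphaq, Bsg and Glut4EF, and so share sequence. The splicing regulator gene ps held 6 with signals from 24.2 to 38.7. Galphaq, a G protein subunit gene, held 6 (20.1 to 37.8). With 5 each followed elav (31.2 to 85.0), Bsg, which encodes the membrane protein basigin (25 to 55.9), Glut4EF (28.9 to 43.2) and the hnRNP gene Hrb27C (24.6 to 34.1). The genes brat and CG42748 also held 5 each and had the lowest summed signals of the 6 genes with that number.

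Hosts more often carried an IDR peak at their own promoter. Such a peak was present at 373 of the 1185 hosts (31.5%, 28.8 to 34.2) against a background of 17.1% of all genes with eligible 3' UTR sequence. The order held at each length of eligible 3' UTR. Up to 250 bp, 28.6% (20.2 to 38.2) of hosts and 12.5% (11.6 to 13.3) of other genes had one. At 500 to 1000 bp the shares were 31.5% (26.4 to 37.0) and 20.8% (18.7 to 23), and above 2000 bp 31.1% (25.7 to 36.8) and 17.9% (14 to 22.4). For the summits themselves, an IDR summit lay within 1 kb of 61 members (4.08%, 3.14 to 5.21) against 6.14% of all weak candidates and 9.52% of those in coding exons, and the median distance was 7647 bp against 7901 bp over all weak candidates, which include those at promoters.

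Genes known for longer 3' UTRs in the nervous system were nearly all hosts. A member lay in 9 of the 10 (90%, 55.5 to 99.7), but these genes have a median of 5593 bp of eligible sequence, and 51.3% of all genes above 4000 bp were hosts. Per kb they held 0.484 members (35 in 72.3 kb) against 0.251 per kb over all eligible sequence. Of the 35, 7 were those of mei-P26, none with a candidate in both replicates. Among the 15000 strongest candidates alone, 40% of the list were hosts. The list was chosen with earlier results of these data known. Besides elav, the highest signals in this list were at fne (80.2, with 35 and 41.4 in replicates 2 and 3), at pum, a translational repressor (58.1, with 23.7 and 31.4), and at Imp (54.8, with 21.1 and 33.8). The 3 ELAV family genes elav, fne and Rbp9 held 11 members, or 0.657 per kb. Of these, the 5 of elav and the 3 of fne are also counted among the 35, so the values of these lists are not independent. The strongest in Rbp9, at 51.8, had a candidate in replicate 3 (37.6) and none within 100 bp in replicate 2. Other neural genes with long 3' UTRs held fewer per kb. The 29 genes of neural differentiation and synapse had a median of 3466 bp of eligible sequence and held 0.148 members per kb. Hosts made up 12 of them (41.4%, 23.5 to 61.1), where 43.4% of all genes with 2000 to 4000 bp were hosts, at 0.265 per kb. Among those 12, Syx1A, a synaptic SNARE protein gene, reached 56.0 (21.6 and 31.0 in replicates 2 and 3), the sodium channel gene para 45.1 (22.9 and 19.9), comt 34.1 and Nrg 33.8.

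The 2 ribosomal protein lists, both of genes with mostly short 3' UTRs, differed in their counts and in their eligible sequence. That sequence was 22.7 kb for the cytosolic list and 5.73 kb for the mitochondrial list. For the cytosolic ribosome, the 79 genes had a median of 167 bp of eligible sequence, and 12 of them (15.2%, 8.10 to 25) were hosts to 14 members, or 0.618 per kb over the list. Over all genes 10.4% were hosts, at 0.251 per kb, and the interval of the list's share holds 10.4%. For all genes with up to 250 bp of eligible sequence, 1.76% were hosts, at 0.155 per kb. At 250 to 500 bp the values were 8.63% and 0.253 per kb, and at 500 to 1000 bp 18.5% and 0.282 per kb. The 3' UTRs that held the list's members were from 229 bp (RpL7A) to 1383 bp (RpS26) long, and only that of RpL7A was under 250 bp. Among the 15000 strongest candidates alone the share of hosts was 3.8% of the list and 3.52% of all genes. RpS26 held 3, and the strongest, 1273 bp after the stop codon, had 83.8, with 24.7 in replicate 2 and 59.95 in replicate 3. At no other member of the list did both replicates hold a candidate within 100 bp, where the share over all members was 20.6%. RpL12 followed at 58.4, RpL28 at 42.6 and RpL38 at 32.7, none with a candidate within 100 bp in both replicates. The nearest IDR summit lay 649 bp from the RpL12 summit, 1958 bp from that of RpL28 and 606825 bp from that of RpL38. For the mitochondrial ribosome, 0 of 55 genes were hosts, where a count of 3 genes would make 5.45% and the exact interval reaches 6.49%, and with the list of either replicate alone in place of the pooled list the share was 5.45%. Their 3' UTRs had a median of 65 bp.

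**Figure D5:**
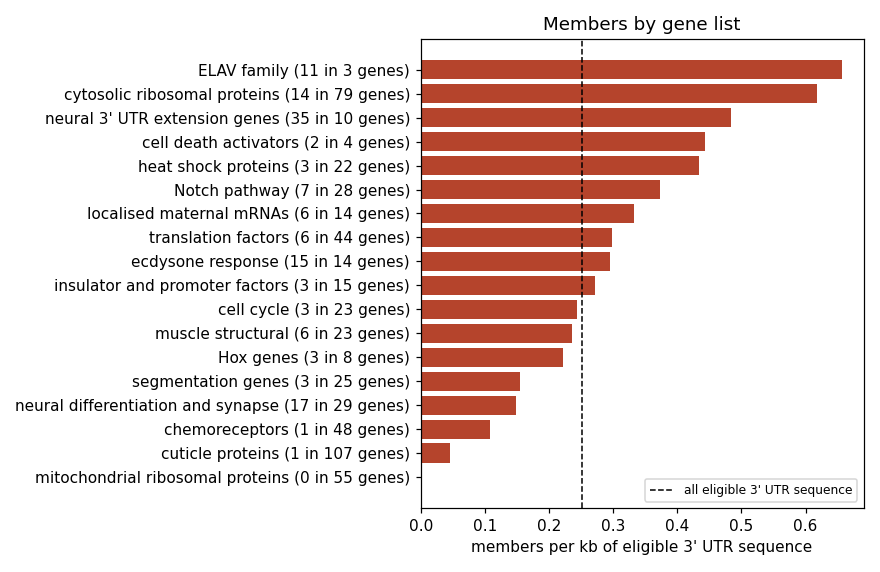
Members per kb of eligible 3' UTR sequence (horizontal axis, starting at 0) in 18 gene lists, with the number of members and of genes with eligible sequence in brackets; the dashed line marks all eligible 3' UTR sequence. ELAV family, cytosolic ribosomal protein and neural 3' UTR extension genes reach 0.657, 0.618 and 0.484 per kb, and lists with under 5 members rest on few candidates. The ELAV family and neural 3' UTR extension lists share elav and fne, so their values are not independent. Of the cytosolic ribosomal protein members, only the strongest in RpS26 had a candidate in both replicates.

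Among developmental regulators, the ecdysone response list, the genes of the moulting hormone cascade, had 7 hosts of 14 (50%, 23 to 77.0) and 0.295 members per kb, where 10.4% of all genes were hosts at 0.251 per kb. These genes have a median of 3189 bp of eligible sequence, and 43.4% of all genes with 2000 to 4000 bp were hosts. Its strongest members were in the nuclear receptor genes ftz-f1 (73.0, with 40.7 and 27.1 in replicates 2 and 3) and EcR (64.5, with 45.5 and 25.6), both higher in replicate 2. Eip74EF had 46.8 and Eip75B 39.2. The Notch pathway had 7 hosts of 28 (25%, 10.7 to 44.9, and 0.374 per kb). Its share was 14.3% and 17.9% with replicate 2 and replicate 3 left out, and 7.14% among the 15000 strongest candidates. It was led by neur, a ubiquitin ligase for Notch ligands (46.8, with 23.3 and 27.2), before Ocho (33.0), E(spl)mgamma-HLH (32.8) and numb (29.1). The Notch ligand gene Delta was not counted in this list, although it held a member at 32.3, so the list's counts and density leave it out. The E(spl)mgamma-HLH member, whose Bearded box is printed above, had no candidate within 100 bp in either replicate. Hox genes had 2 of 8 (0.222 per kb), Antp at 53.7 and Ubx at 23.5. Segmentation genes had 3 of 25 (0.155 per kb), nkd at 35.2, the gap gene Kr at 33.6 and the pair-rule gene odd at 25.8. Localised maternal mRNAs had 2 of 14 (0.332 per kb), pum and the germ plasm organiser osk (33.8), and cell death activators had 1 of 4, hid, with 2 members and a best signal of 41.2 (16.5 and 20.9 in the replicates).

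The remaining lists held few members, and their values stand beside 10.4% of genes and 0.251 per kb over all eligible sequence. Muscle structural genes had 3 hosts of 23 (0.236 per kb), with the tropomyosin gene Tm1 at 45.2 and 4 members, Mlc2 at 24.5 and Mlp84B at 22.1. Translation factors had 4 of 44 (0.298 per kb), with eIF4EHP, a cap-binding repressor, at 39.1, eIF4H1 at 32.1, eIF3f1 at 31.2 and eEF1delta at 23.9. Heat shock genes had 3 of 22 (0.434 per kb), with the chaperone gene Hsc70-3 at 51.8, Hsf at 29.0 and Hsp83 at 20.3. Insulator and promoter factors had 3 of 15 (0.272 per kb), with Trl, the GAGA factor, at 45.7, Clamp at 23.8 and psq at 20.3. Cell cycle genes had 3 of 23 (0.244 per kb), with Dp at 32.6, CycA at 28.2 and fzr at 27.0. Cuticle proteins had 1 of 107, Lcp65Ag3 at 26.6, and chemoreceptors 1 of 48, Gr10b at 23.2. CG4854 itself (arm 3R, 20028058 to 20029561) has a 163 bp 3' UTR that held 0 members.

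Few members lay near the start of a non-coding gene or in a transposable element. A start within 500 bp was found for 49 members (3.28%, 2.43 to 4.31) against a background of 4.19% of all weak candidates. Of these members 32 lay near a non-coding RNA gene, 8 near a small nucleolar RNA gene, 7 near a transfer RNA gene and 2 near a pseudogene, and some share a gene. The strongest was the Ama member, 418 bp from the start of lncRNA:CR44930. In CG12831, members of 72.1 and 59.7 lay 133 and 352 bp from the start of 1 transfer RNA gene, tRNA:Thr-AGT-1-2. A member in Nop60B, which encodes a pseudouridine synthase, lay 26 bp from the start of a small nucleolar RNA gene and had 46.2, with 21.8 and 26 in replicates 2 and 3. Annotated transposable elements held 7 members (0.468%, 0.188 to 0.962) against 0.762% of all weak candidates.

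Most of the 14 short sequence elements searched occurred at members about as often as in 3' UTR sequence at large. Each was searched on both strands within 50 bp of the summit, where a match is a description of the letters and not a site. The Pumilio-type element TGTANATA was found at 8.90% (7.50 to 10.5) of members, 8.71% of the tiled 3' UTR windows and 5.33% of all weak candidates. The AU-rich core ATTTA was at 53.4% (50.8 to 55.9), 52.1% and 45.1% of these, and the polyadenylation signal AATAAA at 26.2% (23.9 to 28.5), 27.3% and 24.7%. For the elements of Notch target mRNAs, the K box TGTGAT was at 4.62%, 5.31% and 4.62%, the Bearded box AGCTTTA at 2.14%, 2.18% and 1.65%, and the GY box GTCTTCC at 0.401%, 0.497% and 0.440%.

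The other elements are those of DNA-binding factors and repeats. The DNA replication-related element TATCGATA was at 5 members (0.334%, 0.109 to 0.779), 0.249% of 3' UTR windows and 1.14% of all weak candidates. The shorter BEAF-32 core CGATA, which lies within it, was at 13%, 13.1% and 13.8%, and the GAGA element GAGAG at 9.97%, 9.96% and 11.7%. The Zelda element CAGGTAG was at 3 members (0.201%), against 0.289% and 0.452%. The E-box CAGCTG was at 2.54% (1.80 to 3.47), 2.11% and 4.50%, and the E-box CACGTG at 0.870%, 0.701% and 1.14%. The repeat CACACACA was at 3.08% of both members and 3' UTR windows and at 2.12% of all weak candidates. A run of 8 A or T was less frequent at members, 5.69% (4.57 to 6.98), than in 3' UTR windows, 8.24%. Members also had the smaller share under 25% GC, and a link between these was not tested.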

How the data were processed

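CG4854-eGFP chromatin immunoprecipitation was measured in 2 replicates of whole embryos, which form 1 group. The authors deposited narrowPeak lists on dm3 and dm6, and those on dm6 were used. Per the README text beside the deposit, each replicate list came from that replicate's alignments and a shared control, the pooled list from both, and the IDR set from these 3 lists. The aligner, peak caller, IDR threshold and read depth were not given in the sources used here, so precision per candidate is unknown. The deposited signal is the authors' score, used within a list, and set side by side between the replicate lists as a description only, since their scales may differ. The deposited −log10 q-values were not used for ranking.

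Summits were placed on Ensembl release 115 (BDGP6.54), whose arms match Release 6, and counted from 1. Eligible sequence is every base that meets the positional rule. A summit within 100 bp counted as the same candidate in a replicate. Position was taken in the longest 3' UTR that holds the summit. Motifs and GC content were read within 50 bp of summits and, for 3' UTR sequence, of a base every 50 bp. The members, the 18 gene lists and the 14 motifs were chosen with earlier results of these data known, and 5 listed names had no match. Classes of rank, GC content and length were added after values were seen. Named genes are hosts of the 25 strongest members, the 10 genes with most members, the 10 members with the highest lower replicate signal, up to 4 hosts per list, CG4854, the IDR peaks in 3' UTRs and 3 members each side of a limit. All results are descriptions with no test, since candidates are not replicates. The placement steps were tested on simulated intervals. Python 3.11.15, numpy 2.4.6, pandas 2.3.3, scipy 1.17.1 and matplotlib 3.10.9 were used. Alternatives covered the lists, distances, windows, chromosome 4 and each replicate left out.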

Additional observations from a re-analysis of the deposited data

How the results depend on the processing

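Over the 8 main results and their alternatives, 43 values stayed within the 95% interval (shares, GC content) or within 1.5 times (numbers, densities), and 17 did not. With the list of replicate 3 or 2 alone in place of the pooled list, the members numbered 1337 to 1599, and 697 (46.6%) and 794 (53.1%) of the 1495 had one of these within 100 bp. The share of genes with a member was then 9.53% to 11.4%, the median GC content 34.7% to 36.6%, the share in the last of 3 equal parts 38.9% to 39.9%, on both strands 2.47% to 3.44%, near a non-coding start 3.13% to 3.29%, and the density 225 to 269 per Mb. The share found in both replicates could not be computed with 1 left out. The pooled list and each replicate list hold 30000 candidates, so the numbers and densities of members depend on that list length. With the 15000 strongest candidates alone, the members numbered 435 (73.1 per Mb) in 3.52% of genes, with 51.7% in both replicates, 1.15% on both strands and a median GC content of 36.6%. The share in both replicates was 11.6% with summits within 50 bp and 30.8% within 200 bp. With TSSs 1000 bp away, 11.9% of genes held a member. In the shortest 3' UTR, 44.6% lay in the last part. Median GC content was 35.3% within 25 bp of summits and 34.8% within 100 bp. Within 100 bp of a non-coding start lay 0.468%. The share of hosts among neural 3' UTR extension genes was 90% with either replicate list and 40% with the 15000 strongest. The cause of each move was not tested. No paired analysis was possible because the samples form 1 group. With no depth, no value can be set against read counts.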
